A study of Homo sapiens with 4 samples.

Results

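The FAM111 family has 2 members, FAM111B and FAM111A, and both were found on the array by their annotated gene symbol, each with 1 probe set, among 10707 named genes that lay above a filter on low values. They were chosen by measured values of these arrays: FAM111B was selected as the named gene with the lowest difference between C646 and DMSO after 24 h, and FAM111A as its paralog. The values of both genes below are therefore a description and carry no test.

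The cells were WM35, a line established from a human melanoma of the radial growth phase, cultured in serum-containing medium. The treated cultures received C646, an inhibitor of the histone acetyltransferase p300 and its relative CBP, at 20 µM, and the control cultures received the solvent DMSO at 0.2%. RNA was collected after 6 h or 24 h, which gave 4 groups: C646 at 6 h, DMSO at 6 h, C646 at 24 h and DMSO at 24 h. Each group was measured on 1 Affymetrix Human Exon 1.0 ST array from 100 ng of total RNA, so every difference below is that of an array and an array, with no replicate check.

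FAM111A and FAM111B are proteases of the cell nucleus with a serine protease domain of the trypsin type near the carboxyl end. FAM111A binds PCNA, the ring-shaped clamp that holds DNA polymerases on DNA, and helps replication forks to pass proteins trapped on DNA. It is also known as a host factor that restricts certain mutants of the virus SV40, and variants of it cause Kenny-Caffey syndrome. FAM111B is less well studied, and variants of it cause a hereditary poikiloderma with fibrosis of tendon, muscle and lung.

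FAM111B (probe set 3331903) had a log2 expression value of 9.47 with C646 at 6 h, against 9.45 with DMSO at 6 h. It had 3.80 with C646 at 24 h, against 9.21 with DMSO at 24 h. The level was thus high and nearly equal on 3 arrays, which spanned 0.26 on the log2 scale, and low on the C646 array of 24 h alone. The difference, C646 minus DMSO, was 0.025 at 6 h and -5.41 at 24 h, a 42.5-fold lower value at the later time. In a bulk culture, fewer cells that carry a transcript and less transcript per cell cannot be told apart.

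The low value of FAM111B lay in the range of probe sets close to background. On the C646 array of 24 h it stood at the 35.0th percentile of all probe sets of that array, whereas on the other arrays it stood between 98.1 and 98.5. Probe sets differ in affinity, so such a percentile shows only how near a value is to the low end of the array. The 40th percentile of the array means, 3.96, was the filter, and FAM111B, with a mean of 7.98 over all 4 arrays, passed it through its high values on the other 3. With values under the 40th percentile of their own array raised to that percentile, the difference at 24 h was -5.26, and with a pseudocount of 16 added on the linear scale it was -4.34. FAM111B was still the lowest of the named genes under both settings.

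FAM111A (probe set 3331926), next to FAM111B on chromosome 11 with no other protein-coding gene between them, was lower at 24 h by less. It had a log2 expression value of 7.88 with C646 at 6 h, against 7.95 with DMSO at 6 h. It had 6.58 with C646 at 24 h, against 7.51 with DMSO at 24 h. The C646 array of 24 h was again the lowest of the 4, but the gap was small beside that of FAM111B. The difference, C646 minus DMSO, was -0.073 at 6 h and -0.94 at 24 h, a 1.91-fold lower value at the later time. At 24 h the difference of FAM111B minus that of FAM111A was -4.47 on the log2 scale, or -3.51 with the pseudocount of 16, since the low value of FAM111B is near background. At 6 h the differences lay within 0.098 of each other.

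**Figure D1:**
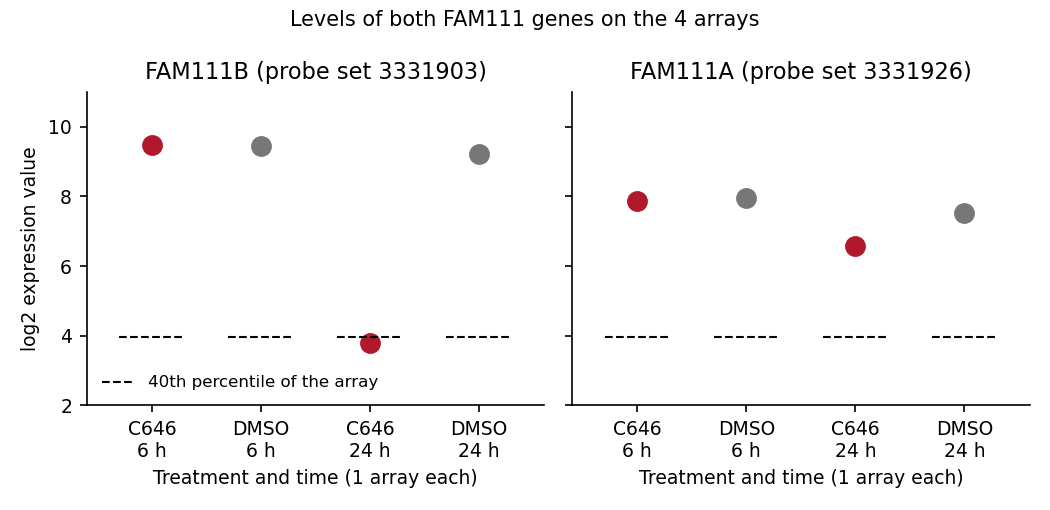
Log2 expression values (vertical axis) of FAM111B (left) and FAM111A (right) on the 4 arrays, C646 in red and DMSO in grey, 1 point per array, with no error because each group has 1 array; dashed lines mark the 40th percentile of each array. FAM111B lies at 3.80 with C646 at 24 h, under the dashed line, and above 9 on the other arrays, while FAM111A lies at 6.58 with C646 at 24 h and between 7.51 and 7.95 on the others.

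Against the background of the whole array, FAM111B was past a 2-fold difference at 24 h and FAM111A was not. Of 16579 probe sets above the filter, 414 (2.5%) were at least 2-fold lower with C646 at 24 h and 189 (1.14%) at least 2-fold higher. At 6 h neither member reached 2-fold, in a comparison where 19 probe sets (0.115%) were at least 2-fold lower and 21 (0.127%) at least 2-fold higher. FAM111B was the lowest at 24 h among these probe sets, and also among all 27631 probe sets without the filter. FAM111A ranked 323 from the lowest of 10707 named genes at 24 h. Its closest neighbours in that order were MTHFD2, a mitochondrial enzyme of folate metabolism, at -0.94, and CKS1B, which encodes a subunit of cyclin-dependent kinase complexes, at -0.94. The CKS1B probe set is numbered among those of another chromosome, and the one numbered with its own was at -0.68. With the mean of both DMSO arrays in place of the DMSO array of 24 h, FAM111A was at -1.16, past 2-fold.

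Vehicle cultures also differed between the times, for FAM111A more than for FAM111B. DMSO at 24 h minus DMSO at 6 h was -0.24 for FAM111B and -0.44 for FAM111A. In that comparison 15 probe sets (0.0905%) were at least 2-fold lower and 9 (0.0543%) at least 2-fold higher, and neither member was among them. FAM111A ranked 120 from the lowest of the named genes in this drift and FAM111B ranked 664. Under C646, 24 h minus 6 h was -5.67 for FAM111B and -1.30 for FAM111A, where 399 probe sets (2.41%) were at least 2-fold lower and 144 (0.869%) at least 2-fold higher. FAM111B was the lowest probe set there too. These comparisons share arrays with those between C646 and DMSO and are not independent of them.

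Most other strongly reduced genes were below 0 at 6 h already. The next 7 named genes from the lowest at 24 h were H2BC3 at -4.86, H3C12 at -4.13, UHRF1 at -3.86, CCNE2 at -3.67, DEPDC1 at -3.63, H2BC14 at -3.52 and TICRR at -3.48. The probe sets of UHRF1 and DEPDC1 that stand for these genes are numbered mostly among those of another chromosome; probe sets numbered with their own chromosome were at -2.95 for UHRF1 and at -1.94 for DEPDC1, which would take both out of the 8 lowest. H2BC3, H3C12 and H2BC14 are core histone genes, UHRF1 directs DNA methylation to newly copied DNA, CCNE2 encodes cyclin E2 and TICRR acts in the firing of replication origins. At 6 h each of these 7 lay below 0, between -1.26 for H2BC3 and -0.14 for H2BC14, and FAM111B was at 0.025. The values of H2BC14 and FAM111B both lie within the SD of 0.22 over all probe sets above the filter. CCNE2, at -0.23, lies just past it. Of 47 measured genes transcribed at the transition into S phase, 12 were also at or above 0 at 6 h. Of 308 named genes at least 2-fold lower at 24 h, 271 (88.0%) were below 0 at 6 h and 37 were at or above 0, against 49.3% below 0 among all 10707 named genes, and the median at 6 h was -0.26. Of the 16 that were at least 8-fold lower at 24 h, 1 was at or above 0 at 6 h, which was FAM111B, a count chosen after its values were seen. Histone genes are near-identical copies, so the value of a single one is uncertain.

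**Figure D2:**
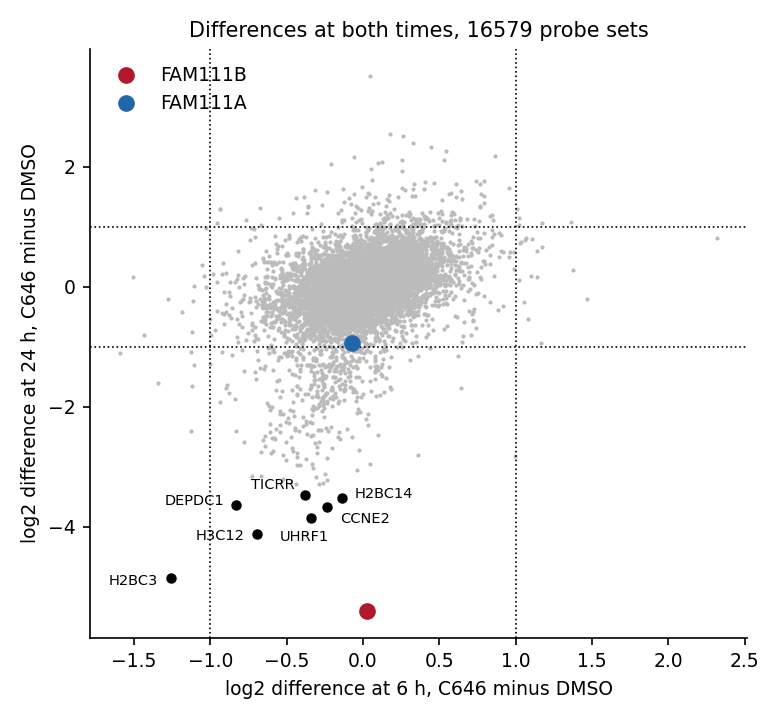
Log2 difference between C646 and DMSO at 6 h (horizontal axis) and at 24 h (vertical axis) for 16579 probe sets above the filter, 1 grey point each; dotted lines mark 2-fold, and black points are the 7 named genes next to FAM111B from the lowest at 24 h. FAM111B (red) lies at 0.025 and -5.41, to the right of the black points, and FAM111A (blue) at -0.073 and -0.94, just above the dotted line.

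The pattern of FAM111B over the 4 arrays was set beside that of every other named gene. The measure was the root mean square difference of log2 values after each gene was centred on its own mean, so that 0 is an identical course. The 10 nearest to FAM111B were H3C12 (0.67), H2BC3 (0.73), CCNE2 (0.83), H2BC14 (0.86), UHRF1 (0.87), DEPDC1 (0.89), H1-5 (0.98), TICRR (0.98), E2F8 (0.98) and CDC25A (0.99), against a median of 2.43 over all genes. Of these, 4 were histone genes and 4 others were on a list of genes transcribed at the transition into S phase. That list holds 47 of the 10707 named genes. The measure is not scaled for size, and the next genes from the lowest at 24 h, named above, are all among the 10. It thus largely repeats the value by which FAM111B was selected. UHRF1 and DEPDC1 stand here with the doubtful probe sets described above. On the C646 array of 24 h FAM111B was at -5.58 relative to the mean of its other 3 arrays, farther below than any of the 10. That too largely follows from its selection as the lowest gene at 24 h.

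FAM111A, with a shallower course, had nearer genes. Its 6 nearest genes were NASP (0.043), TTF2 (0.048), LCN12 (0.063), H2AC12 (0.064), SLC2A13 (0.068) and H2AC15 (0.068), against a median of 0.56 over all genes. NASP is a chaperone of histones H1 and H3, TTF2 releases transcripts from polymerases, and H2AC12 and H2AC15 are histone H2A genes. NASP had 6.78 with C646 at 6 h and 6.82 with DMSO at 6 h, then 5.52 with C646 at 24 h and 6.50 with DMSO at 24 h. Like FAM111A it was nearly level at 6 h and lower at 24 h, and it had drifted downward in DMSO, by -0.32. By the same measure, FAM111A was 246 from the nearest to FAM111B among 10638 genes, and FAM111B was the farthest of all 10638 from FAM111A. The measure is not scaled for size, so the far place of FAM111B largely follows from its selection as the lowest gene at 24 h. Small RNA genes and uncharacterised loci were left out of these ranks.

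**Figure D3:**
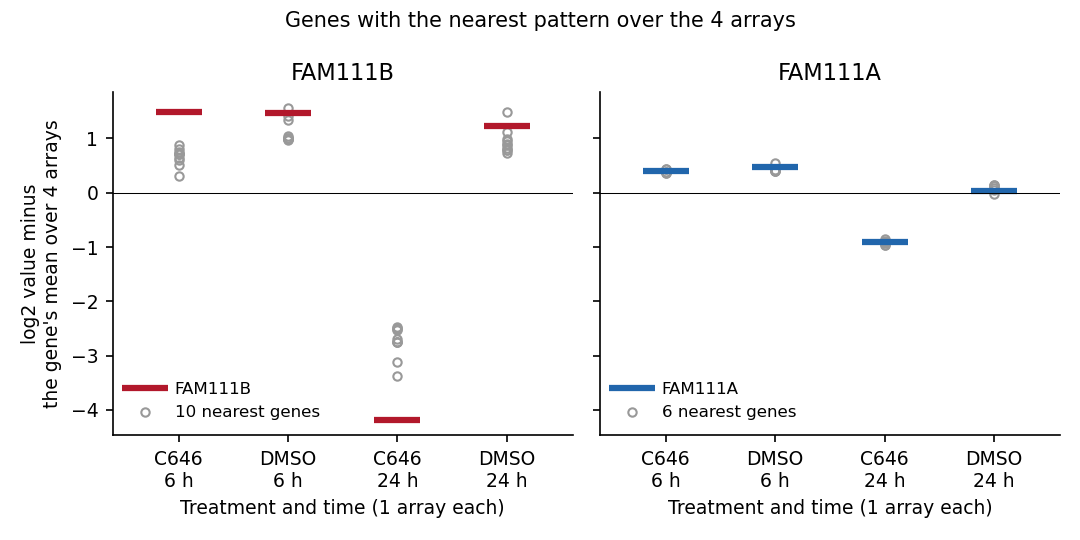
Log2 value minus the gene's own mean over the 4 arrays (vertical axis) on each array, with bars for FAM111B (left, red) and FAM111A (right, blue) and open circles for the 10 and 6 genes nearest to them. FAM111B lies beyond all of its nearest genes on the C646 arrays of both times, and the circles of FAM111A lie close to its bar on every array. The place of FAM111B at 24 h largely follows from its selection as the lowest gene there.

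Genes that dividing cells transcribe were low on the same array as FAM111B. Of 47 measured genes of the G1/S list, 40 were at least 2-fold lower at 24 h and 0 at least 2-fold higher, with a median of -1.71, against 308 of 10707 named genes (2.88%) and a median of 0.030. UHRF1, CCNE2 and TICRR were the lowest of that list. UHRF1 stands here with its doubtful probe set, and at -2.95 with the other it would not be among the 3 lowest. SLBP, a histone mRNA-binding protein, at -0.58, CASP8AP2 at -0.47 and PCNA at -0.47 were the highest. The PCNA probe set is numbered among those of another chromosome, so the value given for PCNA is doubtful. No gene of the list was as low as FAM111B, and 42 were lower than FAM111A. At 6 h the list had a median of -0.087, with 28 genes lower than FAM111A and 11 higher than FAM111B. In the vehicle drift none of the 47 was as low as FAM111A, the lowest being at -0.34, while 16 were lower than FAM111B. Of 31 measured G2/M genes, 30 were at least 2-fold lower at 24 h, with a median of -2.13 and CDCA8, a subunit of the chromosomal passenger complex, lowest at -3.29. ASPM at -2.90 and CCNA2 at -2.86 followed, and ECT2 at -1.31, CDC25C at -1.17 and PTTG1 at -0.62 were the highest. The part of this shift in the values of either FAM111 gene was not tested.

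Some of the factors that govern such genes were low at 24 h as well. Of 19 measured members of the RB, E2F and DREAM list, 8 were at least 2-fold lower and 0 at least 2-fold higher at 24 h. The shares over all named genes were 2.88% and 0.971%, so 0 higher says little in 19 genes. The median of the list was -0.77. E2F8, a repressor of the E2F family, was at -3.28, MYBL2 at -1.87 and the pocket protein gene RBL1 at -1.71. The gene of the kinase inhibitor p21, CDKN1A, was at 0.85, E2F5 at 0.47 and TFDP2 at 0.27. E2F8 was among the genes nearest to FAM111B, with 4.28 with C646 at 24 h and 7.56 with DMSO at 24 h.

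Genes around PCNA, the partner of FAM111A, were spread from -2.16 to 0.85 at 24 h. Of 24 measured genes for PCNA, its loaders and its clients, 8 were at least 2-fold lower and 0 at least 2-fold higher. The shares over all named genes were 2.88% and 0.971%. The median of -0.85 was close to FAM111A at -0.94, but that of the RB, E2F and DREAM list, at -0.77, was not far from it either. ATAD5, which unloads PCNA, was at -2.16, DSCC1 at -2.08 and the flap nuclease gene FEN1 at -1.82. SMARCAL1 and POLH were both at 0.14, and CDKN1A was the highest. The probe sets of FEN1 and of PCNA itself are numbered among those of other chromosomes, so the values of both are doubtful. This list shares 7 measured genes with the G1/S list. Of 16 measured genes for the repair of DNA-protein crosslinks and topoisomerase lesions, 2 were at least 2-fold lower and 0 higher. These counts stand against the same 2.88% and 0.971%, and the median was -0.22. RFWD3, a ubiquitin ligase of replication forks, was at -1.57, TRAIP, another, at -1.03 and PARP1 at -0.70, whereas UFD1 was at 0.016, TOP2B at 0.025 and TDP2, which releases topoisomerase II from DNA, at 0.35. The UFD1 probe set is numbered among those of another chromosome, and the one numbered with its own was at -0.11. FAM111A was lower than 14 of these 16.

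Other proteases of the trypsin type were set beside the FAM111 genes. Of 44 such genes listed, 40 had a named probe set and 19 were above the filter, with a median of 0.047 at 24 h. Of the 19, 0 were at least 2-fold lower, against 2.88% of all named genes, so that few or none would be met in any 19 genes. The lowest was HTRA1, a secreted protease, at -0.39 (another probe set of it was at -0.19), followed by PRSS12 at -0.29 and HTRA3 at -0.14, against -0.94 for FAM111A. The highest was PRSS35 at 2.51, which had 6.25 with C646 at 24 h and 3.74 with DMSO at 24 h. TYSND1, a peroxisomal protease, was at 0.62 and KLK6 at 0.36.

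**Figure D4:**
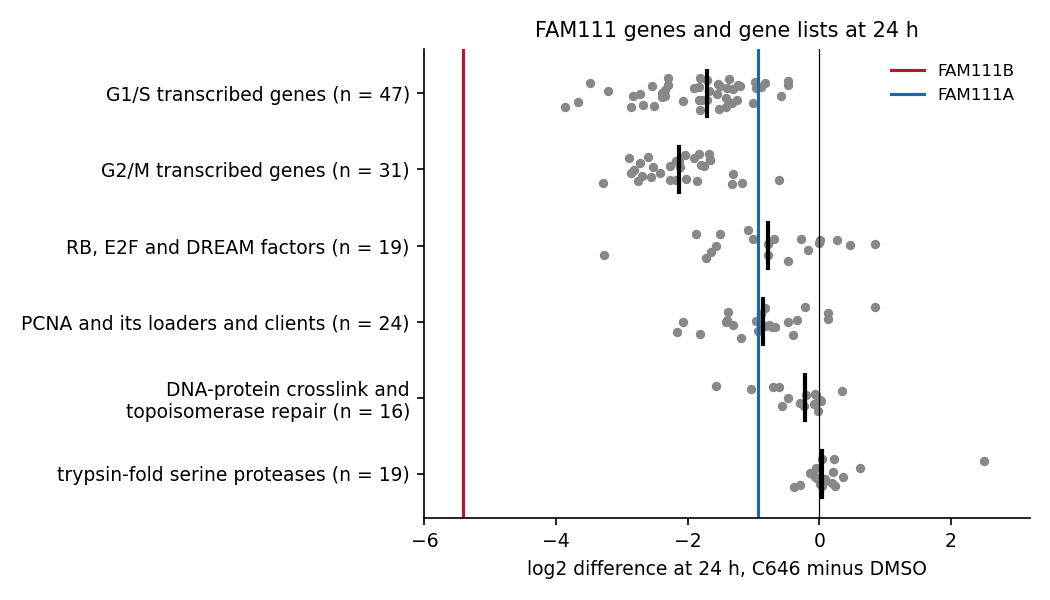
Log2 difference between C646 and DMSO at 24 h (horizontal axis) for the measured genes of 6 lists, 1 grey point per gene with a black bar at the median; vertical lines mark FAM111B at -5.41 and FAM111A at -0.94. FAM111B lies below every gene of the 6 lists. FAM111A lies near the medians of the PCNA list and of the RB, E2F and DREAM list, and above the median of the G1/S list. The trypsin-fold proteases centre on 0.047, and several of them lie close to the filter, with little room to fall.

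The genes around the FAM111 pair on chromosome 11 differed little between C646 and DMSO at 24 h. Among the 10 protein-coding genes on either side in the GRCh38.p14 gene table, 14 of 20 had a named probe set, and their differences at 24 h ran from -0.12 to 0.19. Only 2 of the 14 were above the filter, and 10 of the 20 are olfactory receptor genes, so most of this stretch was near background on every array. LPXN, an adaptor of focal adhesions, was at 0.059 at 6 h and 0.035 at 24 h. DTX4, a ubiquitin ligase of the Notch pathway, was at -0.28 at 6 h and 0.076 at 24 h. The probe sets of FAM111B and FAM111A are numbered among others of chromosome 11, as all 20 of the nearest named ones were for each.

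The RefSeq promoter table of GRCh38.p14 matched 1 of the 2 members, FAM111A, with windows at 2 start sites that run from 250 bases before to 50 after the start. They are shown because FAM111A was low together with genes of the G1/S list, many of which are known targets of E2F factors, and capitals mark the E2F core letters. The letters searched on either strand were TTCCCGC and, as variants of it, TTGGCGC as well as TTCGCGC and also the form TTGCCGC.
FAM111A first start site, chr11:59142606-59142905, plus strand: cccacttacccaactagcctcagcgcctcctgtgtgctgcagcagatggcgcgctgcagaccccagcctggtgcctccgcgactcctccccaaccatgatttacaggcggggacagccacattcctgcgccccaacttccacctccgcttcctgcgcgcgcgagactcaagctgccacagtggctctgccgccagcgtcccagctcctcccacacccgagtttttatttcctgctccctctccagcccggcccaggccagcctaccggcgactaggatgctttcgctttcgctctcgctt
FAM111A second start site, chr11:59144612-59144911, plus strand: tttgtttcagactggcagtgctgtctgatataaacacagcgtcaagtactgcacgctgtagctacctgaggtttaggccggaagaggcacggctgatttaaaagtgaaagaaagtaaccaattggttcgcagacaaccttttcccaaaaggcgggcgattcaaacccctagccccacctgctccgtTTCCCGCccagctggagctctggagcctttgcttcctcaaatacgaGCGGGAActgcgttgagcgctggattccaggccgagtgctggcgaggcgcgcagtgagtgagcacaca
The first window held no match to these letters. The second held 2, TTCCCGC beginning 64 bases before the start and its reverse complement GCGGGAA beginning 18 bases before it. It also held CCAAT 133 bases before the start, the overlapping ATTGG on the other strand 130 bases before it, and TTCAAA, the reverse complement of the CHR letters TTTGAA, 92 bases before it. Of all 35116 promoter windows in the table, 13.0% held an E2F core match, 16.4% held TTTGAA or TTCGAA and 34.6% held CCAAT on either strand. Among 316 windows of genes at least 2-fold lower at 24 h these shares were 40.5%, 32.9% and 56.3%, and among 12625 windows of all named genes above the filter they were 18.6%, 11.9% and 34.6%. Among 105 windows of genes at least 2-fold higher they were 17.1%, 14.3% and 36.2%. FAM111A was not past 2-fold and is in neither of these groups of changed genes. Whether E2F factors act on either FAM111 gene was not tested. A match is a description of letters, not a bound site, and the array does not tell which start site of FAM111A was used.

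The C646 array of 24 h was the least like the others over all 27631 probe sets, with correlations of 0.975 to 0.979 to them, while the other 3 correlated with each other at 0.991 or more. The array medians lay between 4.39 and 4.41. Of 8 melanocyte markers 6 were measured, all above the filter, with log2 values from 6.06 to 10.95 on the 4 arrays, PMEL being the highest. Their median difference was 0.45 at 6 h and 0.57 at 24 h, from PMEL at 0.078 to S100B at 1.49 at 24 h. The 5 measured leukocyte markers had means below the filter, and their highest value on any array was 4.003, that of LYZ with C646 at 6 h. Of the markers of other cell types, 4 were above the filter, with differences at 24 h of -0.21 for LUM, 0.0031 for COL1A1, 0.16 for KRT10 and 0.68 for KDR, the receptor of VEGF. KDR stood at 7.66 to 8.65 on the 4 arrays, while the other endothelial markers, PECAM1, VWF and CDH5, were below the filter. LUM stood at 5.55 to 5.92, KRT10 at 5.82 to 5.99 and COL1A1 at 4.02 to 4.08.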

How the data were processed

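Log2 expression values of 27631 gene-level probe sets on 4 arrays were taken from the value table that the authors deposited. Their range shows that the scale is log2. Array medians and quartiles were nearly equal as deposited, with the normalization behind this not given in the sources used here; hg19 is named in the submitters' processing notes. Names came from the platform annotation, where 20429 probe sets have 1 symbol, 4232 have more than 1 and 2970 have no symbol, and were updated through Entrez identifiers with the GRCh38.p14 gene table. Probe sets with a mean at or above the 40th percentile (3.96) were kept, which left 16579, and the highest-mean probe set stood for each of 10707 genes.

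Differences are log2 values of 1 array minus 1 array, given without a test or an error, and a call means at least 2-fold. Precision is limited by the number of arrays. The members, the 11 gene lists and the alternatives were chosen with earlier results of these data known. Genes named were both members, the 10 and 6 nearest in pattern, the 8 lowest at 24 h, the 3 lowest and 3 highest of each list, measured neighbours on the chromosome, and the genes beside FAM111A in rank, which were added after their values were seen. Of 66 such genes, 7 had probe sets numbered mostly among those of another chromosome: CKS1B, DEPDC1, FEN1, PCNA, UFD1, UHRF1 and HTRA1. The planned comparison of protein sequences was not made. The calculations were tested on simulated data. Python 3.11.15, pandas 2.3.3 and numpy 2.4.6 were used.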

Additional observations from a re-analysis of the deposited data

Results flagged for a closer look

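FAM111B differed between C646 and DMSO by -5.41 at 24 h and by 0.025 at 6 h. It is listed here because the differences at both times have opposite signs, each from 1 array of C646 and 1 of DMSO. The difference between the times was not tested, and the value at 6 h is small beside the spread of all probe sets above the filter (SD 0.22 at 6 h).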

How the results depend on the processing

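FAM111B at 24 h was -5.26 with a floor at the 40th percentile of each array and -4.34 with a pseudocount of 16, and it was the lowest named gene under these and under quantile normalization, median centring and the mean of both DMSO arrays as reference. With that mean as reference, FAM111A was at 0.15 at 6 h, opposite in sign to -0.073, and at -1.16 at 24 h, past 2-fold, and the median of the G1/S list at 24 h was -1.88. The count of probe sets at least 2-fold higher at 6 h was 12 with the filter at the 60th percentile, where fewer probe sets were counted. Each member has 1 probe set, so averaging probe sets gave the same values. In all, 89 of 100 alternative values stayed within 0.12 on the log2 scale of the reported value, or for counts within 1.5 times. The other 11 are the 6 values above and 5 medians of endothelial and keratinocyte markers, lists with 1 gene above the filter each. No paired analysis was possible because each group has 1 array and the result comes from no test. Signal over background limits the low end: a value such as 3.80 for FAM111B is close to background, so its fold is uncertain.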
